A study of Magallana angulata with 8 samples.

Results

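The GTPases of immunity-associated proteins (GTPase IMAP proteins, or GIMAPs) were followed in the gills and mantles of the Fujian oyster *Crassostrea angulata* that differed in body Cu. Every gene whose Blast annotation contained the words GTPase IMAP was taken, which gave 24 of the 25647 genes in the table. Of these 24 genes, 17 were annotated as family member 4, 4 as member 7, 2 as member 1 and 1 as member 8. The 8 libraries were each made from 1 tissue of 6 pooled adult oysters aged 9 months. High-Cu (H) and low-Cu (L) pools held the oysters with the highest and the lowest tissue Cu of their group. G2 and M2 were gills and mantles of oysters kept in tanks at 30 µg/L Cu for 30 days, and G1 and M1 came straight from the oyster farm. Exposure to Cu and life in a tank therefore cannot be told apart in the comparison of 2 with 1. Each of the 8 conditions had 1 library. The study's results describe the gill and mantle pools of a class (G1-H and M1-H, for example) as taken from the same oysters, while its methods speak of selection by Cu in the gills or the mantles.

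GIMAPs are GTP-binding proteins that share a guanine nucleotide-binding domain of the AIG1 type, which is named after a plant gene induced in the response to bacteria. In vertebrates they are best known from lymphocytes, where several of them sit on intracellular membranes and act in cell survival and cell death. In mouse and human, GIMAP1 is needed for mature B and T cells, GIMAP4 has been tied to T cell death, and GIMAP7 is active as a dimer. Bivalves have no lymphocytes but carry many GIMAP genes, which have been discussed as part of their innate immunity. The member number of an oyster gene is that of its best database match and does not make it the counterpart of the vertebrate gene of that number.

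One member, OYG_10000553_10004153 (family member 7), was also chosen by the study for quantitative PCR, and its primer pair is shown because it is the sequence by which the study assayed a member of the family. Both primers are 19 bases long and are given 5′ to 3′, with no base set apart by capitals.
Forward primer of OYG_10000553_10004153: taccaaagccaaaatgcct
Reverse primer of OYG_10000553_10004153: tttctctgaccctctccca
The forward primer holds 8 G or C bases (42.1%) and the reverse primer 10 (52.6%). The study states that quantitative PCR of its selected genes matched the sequencing pattern well, on RNA samples similar to those sequenced. Its text gives no value for this gene. No genome coordinates or protein sequences were used for these 24 genes.

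Levels were read as RPKM, reads scaled to gene length and to the total reads of a library, so that genes of different length can be compared. The values fell on whole steps, so the reads behind them could be recovered, with totals of 2015375 to 2589524 reads per library behind the scaling. These totals are lower than the mapped and the uniquely mapped reads that the study lists for the same libraries, and which reads were left out of the RPKM is not given in the sources used here. At this depth 3 reads, the limit that a count of 0 allows, were worth 1.16 to 1.49 RPKM for a gene of 1 kilobase. The M2-L library stood apart from the others, with a median of 7.07 RPKM over the 20123 genes with a mean of at least 1 RPKM, against 9.38 to 10.7 RPKM in the other 7 libraries. Between 38.7% and 52.0% of all genes differed at least 2-fold in the 3 pairs that held M2-L, against 19.5% to 35.1% in the other 9 pairs. Gill and mantle matched their labels by marker genes: of 41 tested cilia genes 30 were called higher in gill and 0 lower, and of 8 tested muscle genes 0 were called higher in gill and 7 lower (limma, adjusted p under 0.05). Of 34 tested shell-forming mantle genes, 7 were called higher in gill and 12 lower.

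The 24 GIMAP genes differed widely in level. Mean RPKM over the 8 libraries ran from 49.3 in OYG_10010574_10025251 to 0.056 in OYG_10000709_10002611, which had 1 read in all. A mean of at least 10 RPKM was reached by 8 genes, 13 lay between 1 and 10, and 3 lay below 1 and were left out of the tests. Reads were found in all 8 libraries for 13 genes, in 4 to 7 libraries for 7 genes, and in 1 or 2 libraries for 4 genes. The coding lengths given by the RPKM steps ran from 447 to 2658 bases, with a median of 945. The 3 genes left out were OYG_10004191_10001159 with 3 reads in G2-H and 1 in M1-L, OYG_10019523_10039870 with 1 read each in G1-H and M1-L, and OYG_10000709_10002611 with 1 read in G1-L.

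**Figure D1:**
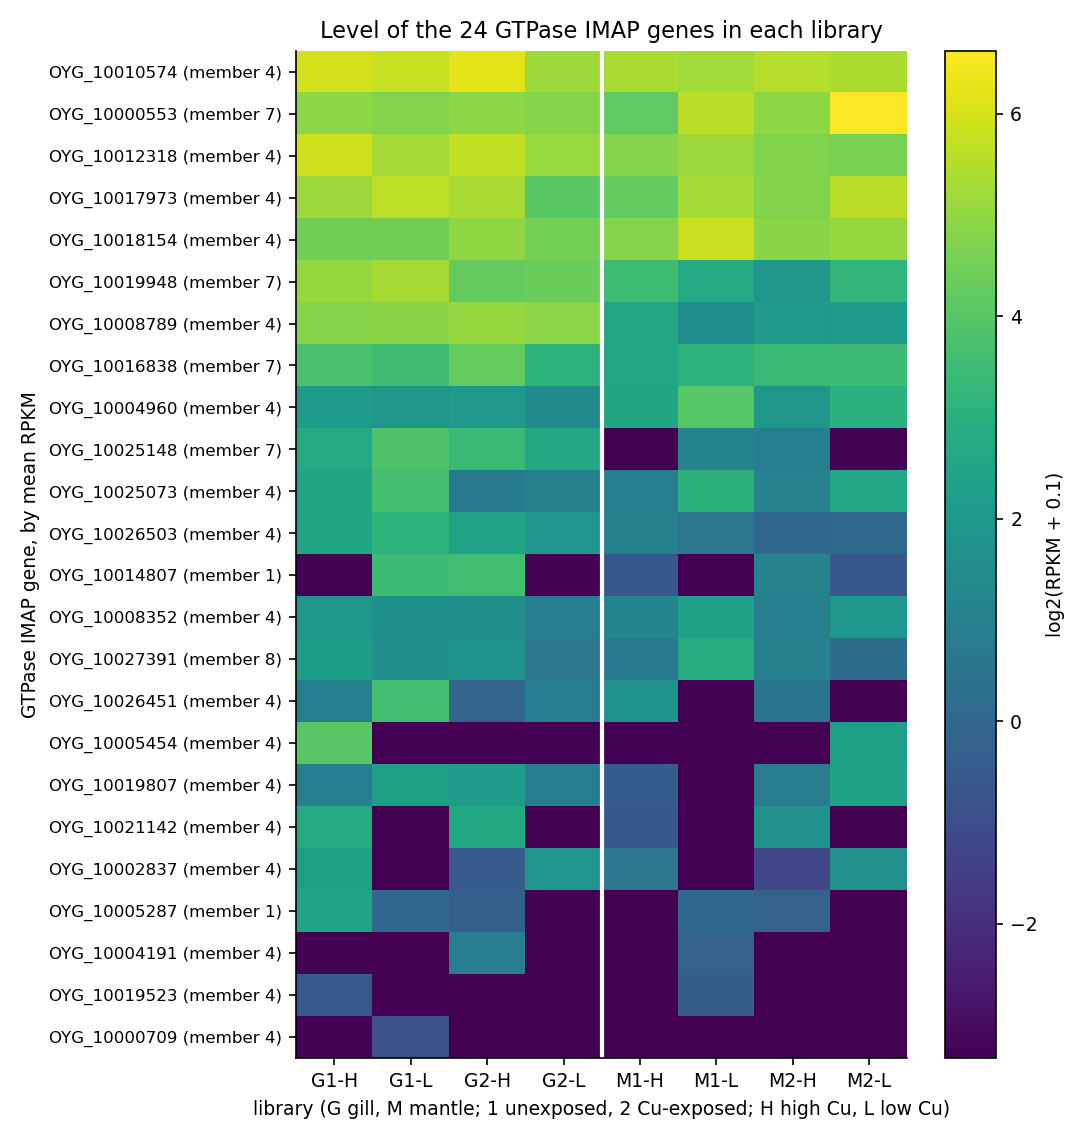
Level of each of the 24 GTPase IMAP genes (rows, ordered by mean RPKM, with the annotated family member) in each of the 8 libraries (columns, gill left of mantle), coloured by log2(RPKM + 0.1). The upper rows hold reads in every library, while dark cells, which have 0 reads, lie mostly in the lower rows and include OYG_10021142_10004153 in all 4 low-Cu libraries.

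The 5 most abundant genes carried most of the family's level: OYG_10010574_10025251, OYG_10000553_10004153, OYG_10012318_10004153, OYG_10017973_10026377 and OYG_10018154_10015717, with means of 49.3, 39.0, 37.3, 34.2 and 30.6 RPKM. Together they held 59.7%, 55.4%, 64.5% and 62.1% of the summed RPKM of the family in G1-H, G1-L, G2-H and G2-L. Their share was 75.4%, 78.2%, 79.8% and 80.8% in M1-H, M1-L, M2-H and M2-L, so that it was higher in each mantle library than in any gill library. The gene with the highest level was OYG_10010574_10025251 in 6 of the 8 libraries, OYG_10018154_10015717 in M1-L (57.3 RPKM) and OYG_10000553_10004153 in M2-L (98.3 RPKM).

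Summed over the 24 genes, the level was 355 RPKM in G1-H against 348 in G1-L, and 354 in G2-H against 221 in G2-L. In the mantle the high-Cu library was the lower in both pairs, with 178 RPKM in M1-H against 277 in M1-L, and 199 in M2-H against 303 in M2-L. The high minus low difference in the sum was 7.53 and 132 RPKM in the G1 and G2 gills and -98.8 and -104 RPKM in the M1 and M2 mantles. Of the mantle differences, OYG_10000553_10004153 alone made up -30.2 RPKM in M1 and -67.8 RPKM in M2. The other large parts of the M1 difference were -29.5 RPKM from OYG_10018154_10015717 and -19.9 RPKM from OYG_10017973_10026377, and OYG_10017973_10026377 gave -20.8 RPKM in M2. In the G2 gills, 37.9 RPKM of the difference came from OYG_10010574_10025251, 24.2 from OYG_10017973_10026377 and 18.6 from OYG_10012318_10004153. The G1 difference was small beside its parts, which had both signs. They included 21.3 RPKM from OYG_10012318_10004153 and -13.6 RPKM from OYG_10017973_10026377. OYG_10005454_10003069, with 27 reads in G1-H and 0 in G1-L, gave 16.5 RPKM, more than the whole G1 difference, so its sign hangs on that gene. With 1 library a condition these sums have no replicate error.

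**Figure D2:**
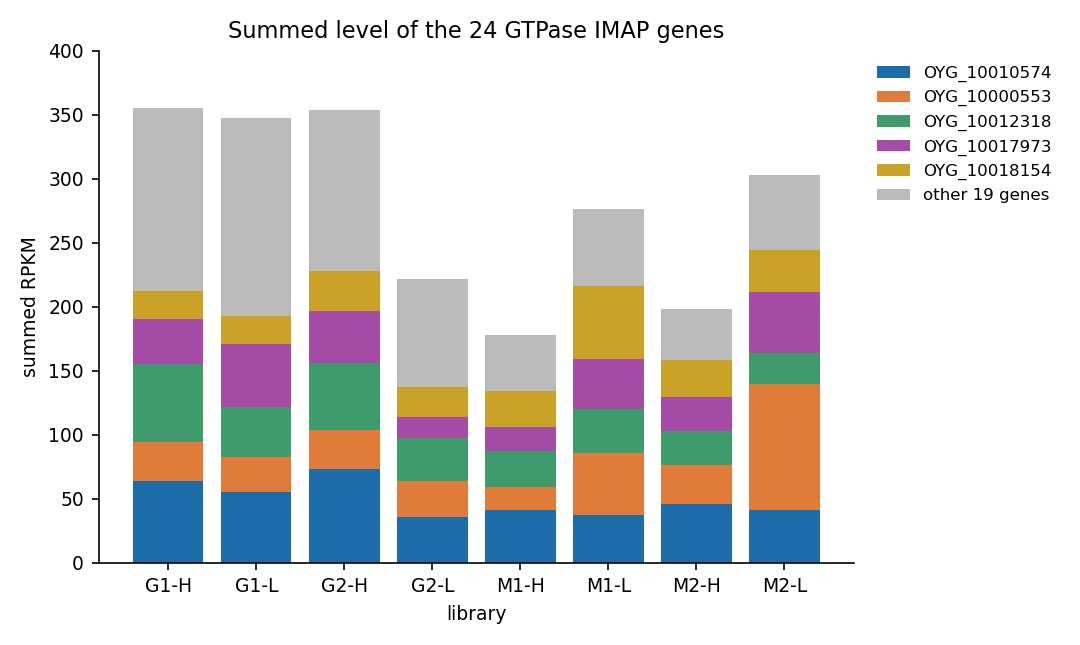
Summed RPKM of the 24 GTPase IMAP genes in each library, with the 5 most abundant genes as coloured segments and the other 19 in grey. Within each oyster group the high-Cu library stands left of its low-Cu partner. The high-Cu bar is the taller in the G2 gill pair, nearly level with its partner in G1 (a difference of 7.53 RPKM), and the shorter in both mantle pairs. The OYG_10000553_10004153 segment is tallest in M2-L.

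Gill was compared with mantle over 4 libraries each to ask where the family is expressed. Of the 21 tested GIMAP genes, 4 were called higher in gill and 0 lower (limma on log2(RPKM + 0.1), adjusted p under 0.05 over all genes), and 5 had an unadjusted p under 0.05, against 29.3% of all genes. Of all 20123 genes, 9.77% were called higher in gill and 5.92% lower, 15.7% in all, so the called share of the family was close to the background. The same 4 genes were at least 2-fold higher in gill in all 4 pairs and 0 were lower, where 6.06% of all genes were higher and 4.58% lower. In these 4 genes every gill library also lay above every mantle library, as in 12.6% of all genes, and 0 lay below, against 6.99%. The median difference was 0.65 on the log2 scale for the 21 genes and 0.21 for all genes, and 17 of the 21 lay above 0, against 61.4% of all genes. In bulk tissue, more cells that express a gene and more RNA per cell cannot be told apart.

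OYG_10008789_10034269, a family member 4 gene, had the smallest adjusted p of the family for tissue. It had 28.2, 28.9, 32.9 and 29.7 RPKM in G1-H, G1-L, G2-H and G2-L, and 6.17, 2.76, 4.20 and 4.44 RPKM in M1-H, M1-L, M2-H and M2-L. All gill libraries lay within a narrow band far above all mantle libraries. The means were 29.9 ± 2.07 RPKM in gill and 4.39 ± 1.40 RPKM in mantle (SD, n = 4 each), a log2 difference of 2.79 (SE 0.29, limma adjusted p = 0.00109).

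OYG_10019948_10035256, annotated as member 7 and with a coding length of 2010 bases, had 32.7, 38.8, 18.6 and 20.6 RPKM in G1-H, G1-L, G2-H and G2-L. It had 11.5, 6.67, 3.69 and 9.10 RPKM in M1-H, M1-L, M2-H and M2-L. The groups did not overlap, and the unexposed gills were the highest. The means were 27.7 ± 9.68 RPKM in gill and 7.74 ± 3.34 RPKM in mantle (SD, n = 4 each), a log2 difference of 1.87 (SE 0.34, limma adjusted p = 0.00778).

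OYG_10026503_10025252, a member 4 gene, had 5.67, 8.60, 5.39 and 3.58 RPKM in the gill libraries G1-H, G1-L, G2-H and G2-L, and 1.96, 1.46, 0.908 and 0.960 RPKM in the mantle libraries M1-H, M1-L, M2-H and M2-L. Every gill value was above every mantle value, though the mantle values rested on 3 to 6 reads. The log2 difference was 2.05 (SE 0.45, limma adjusted p = 0.0178). OYG_10025148_10001159, the shortest gene of the family and annotated as member 7, had 7, 13, 12 and 7 reads in G1-H, G1-L, G2-H and G2-L, and 0, 2, 2 and 0 reads in M1-H, M1-L, M2-H and M2-L. Its mantle level was at or below the limit of 3 reads, so, set against 3 reads per library, gill was at least 2.25-fold higher in the G1-H to M1-H pair and at least 2.18-fold higher in the G2-L to M2-L pair. With the counting error of both libraries included, the exact 95% lower limits were 0.48 and 0.43 on the log2 scale, and Fisher's exact FDR was 0.0617 and 0.0405. Its fitted log2 difference of 4.29 (SE 1.21, limma adjusted p = 0.0470) depends on the value added to RPKM. The call of OYG_10026503_10025252 was lost without G1-L, G2-H or M2-H (adjusted p = 0.090, 0.084 and 0.055), and that of OYG_10025148_10001159 without G1-H, G1-L, G2-H, G2-L, M1-H or M2-L (limma adjusted p = 0.0955, 0.145, 0.143, 0.0925, 0.105 and 0.110).

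**Figure D3:**
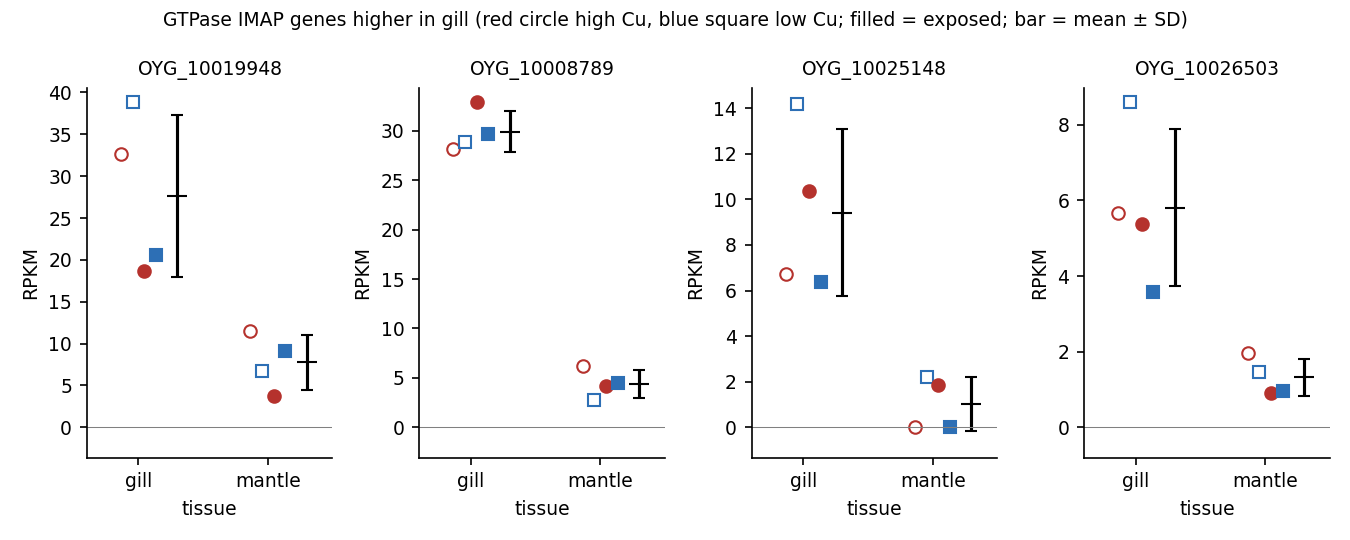
RPKM of the 4 GTPase IMAP genes called higher in gill, 1 panel each, with gill left of mantle. Points are single libraries (red circles high Cu, blue squares low Cu, filled symbols Cu-exposed) and bars give mean ± SD of the 4 libraries. In each panel the lowest gill point lies above the highest mantle point.

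None of the 5 most abundant genes was called different between tissues (limma). OYG_10012318_10004153 averaged 46.3 ± 12.3 RPKM in gill and 28.4 ± 4.54 RPKM in mantle (SD, n = 4 each), a log2 difference of 0.68 (SE 0.22) that missed the threshold (limma adjusted p = 0.0806). OYG_10010574_10025251 averaged 56.9 ± 16.1 RPKM in gill and 41.7 ± 3.54 RPKM in mantle, with overlapping groups (log2 difference 0.40, limma adjusted p = 0.279). OYG_10018154_10015717 and OYG_10000553_10004153 had the higher mean in mantle, with log2 differences of -0.52 and -0.46 (limma adjusted p = 0.273 and 0.467). The cilia list, which marks gill epithelium, summed to 3826 to 5638 RPKM in the gill libraries and 1208 to 1643 RPKM in the mantle libraries, with reads for 47 of its 47 genes. The list of hemocyte and immune effector genes, with reads for 24 of 25 genes, summed to 1388 to 20343 RPKM in gill and 9648 to 44185 RPKM in mantle. It was led by an extracellular superoxide dismutase gene, OYG_10026148_10030582, at a mean of 11632 RPKM. Of its 21 tested genes, 2 genes were called higher in gill and 3 lower, against 9.77% and 5.92% of all genes. The part of these cells in the GIMAP differences was not tested.

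The comparison that the study was built on set high-Cu against low-Cu oysters within each group. In gill, 0 of 21 GIMAP genes passed the adjusted threshold and 1 had an unadjusted p under 0.05 (limma), where 0.00497% and 4.64% of all genes did. In mantle the counts were 0 and 4, where 0.0% and 12.2% of all genes did. A limma voom fit on the recovered reads also called 0 (0.0% of the tests over all genes), with 8 unadjusted calls in the 42 tests of gill and mantle, against 9.12% of these tests over all genes. By a rule of at least 2-fold in 1 direction in both pairs, 2 genes were higher and 0 lower in the high-Cu gills, against 2.31% and 3.13% of all genes. These were OYG_10021142_10004153, with reads in high-Cu libraries only, and OYG_10005287_10024329, which passed the filter through its 5.56 RPKM in G1-H. OYG_10021142_10004153 was also the gill gene with an unadjusted p under 0.05 and was among those in mantle. Nothing is therefore read from the shares of all genes beside these gill counts. In the high-Cu mantles 3 genes were higher and 4 lower by that rule, against 5.02% and 2.95% of all genes. The 3 higher genes include OYG_10021142_10004153. It also enters the unadjusted mantle count, the 42 voom tests and the single-pair shares below. Nothing is read from the shares of all genes beside these counts either. The median log2 difference of the family was 0.40 in gill and -0.13 in mantle, and that of all genes 0.10 and 0.18. Over all genes the median was 0.03 in the M1 pair and 0.32 in the M2 pair, which holds M2-L, while over the family it was -0.29 and -0.12. In single pairs, 42.9% of the 21 genes differed at least 2-fold in G1, 42.9% in G2, 71.4% in M1 and 61.9% in M2, against 19.5%, 27.1%, 24.5% and 41.3% of all genes. With a Fisher FDR of at most 0.001 added, which asks that the reads of both libraries differ beyond counting error, 1 gene was higher and 2 lower in G1-H, and 4 were higher and 0 lower in G2-H, against 1.86% and 6.95% of all genes in either direction. By that rule 0 genes were higher and 4 lower in M1-H, and 0 higher and 1 lower in M2-H, against 3.81% and 16.6% of all genes.

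OYG_10021142_10004153, a member 4 gene, was the only family gene whose 4 high-Cu libraries all lay above its 4 low-Cu libraries, which 2.12% of all genes did, and 0 family genes showed the reverse order (1.19%). It had 6.68, 6.51, 0.576 and 3.21 RPKM in G1-H, G2-H, M1-H and M2-H, and 0 in G1-L, G2-L, M1-L and M2-L. These values stood for 12, 13, 1 and 6 reads, 32 in all, against 0 in the low-Cu libraries. It thus passed the filter of a mean of 1 RPKM through its high-Cu libraries alone, so that its order and p-values are given as a description, and nothing is read from the shares of all genes beside them. In gill, set against 3 reads per library, it was at least 3.52-fold higher in G1-H than in G1-L and at least 4.12-fold higher in G2-H than in G2-L. With the counting error of both libraries included, the exact 95% lower limits were 1.29 and 1.53 on the log2 scale, and Fisher's exact tests on the reads of each pair gave FDR 0.00954 and 0.00188. In mantle the reads did not show a difference, with FDR 1.0 in the M1 pair and 0.0889 in the M2 pair. Those tests compare libraries, and across libraries the limma fit gave log2 differences of 6.06 (SE 1.56, adjusted p = 0.824) in gill and 3.90 (SE 1.56, adjusted p = 0.407) in mantle. As 1 effect over both tissues, the difference was 4.98 (SE 1.08, unadjusted p = 0.00161, limma adjusted p = 0.466), higher in 4 of 4 pairs, where 0.0% of all genes passed the adjusted and 10.7% the unadjusted threshold. All 3 fitted sizes depend on the value added to RPKM.

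OYG_10000553_10004153, the gene with the primers above, was lower in both high-Cu mantles. It had 18.0 and 30.5 RPKM in M1-H and M2-H, against 48.2 and 98.3 RPKM in M1-L and M2-L. M2-L and M1-L were thus its highest libraries of the 8, and M1-H its lowest. In gill it had 30.8 and 30.4 RPKM in G1-H and G2-H, against 27.7 and 28.2 RPKM in G1-L and G2-L, a spread of 1.55 RPKM (SD) around 29.3 over the 4 libraries. The mantle log2 difference was -1.55 (SE 0.28, unadjusted p = 0.00134, limma adjusted p = 0.364), -1.42 in M1 and -1.68 in M2. On the reads, 35 against 84 in the M1 pair and 64 against 195 in the M2 pair, Fisher's exact tests gave FDR 7.06e-06 and 5.01e-17. The M1 value does not involve M2-L. The gill minus mantle difference of the Cu effect was 1.68 on the log2 scale (SE 0.40, unadjusted p = 0.00512, limma adjusted p = 0.913), where 4.35% of all genes had an unadjusted p under 0.05.

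OYG_10021142_10004153, OYG_10000553_10004153 and OYG_10012318_10004153 share the last number of their identifiers, an ending carried by no other gene of the table, and the sources do not say what it stands for. OYG_10012318_10004153 had 60.5 and 52.0 RPKM in G1-H and G2-H against 39.2 and 33.4 RPKM in G1-L and G2-L. In mantle it had 28.3 and 26.3 RPKM in M1-H and M2-H against 34.7 and 24.2 RPKM in M1-L and M2-L. Genes of 1 ending thus showed 3 different orders of the libraries. Across the family 4 endings were shared by 9 genes. The study's methods speak of counting unambiguous tags, and how reads that match several similar genes entered the RPKM is not given in the sources used here, so differences between close family members carry that uncertainty.

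**Figure D4:**
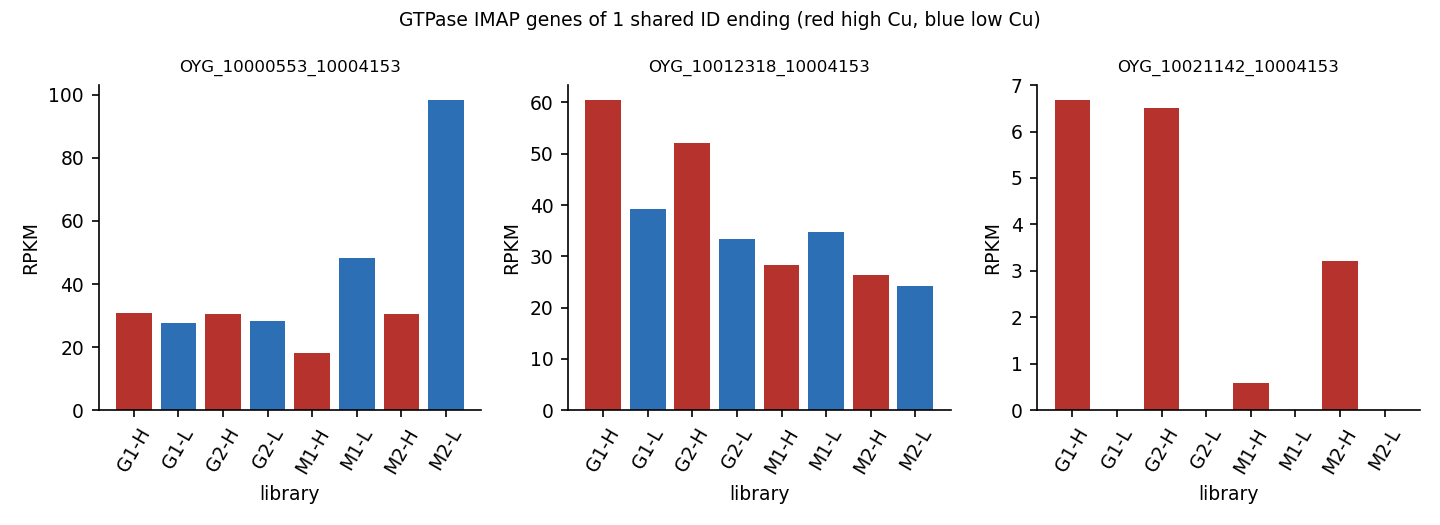
RPKM in each library of the 3 GTPase IMAP genes with the same identifier ending, with high-Cu libraries in red and low-Cu libraries in blue. OYG_10021142_10004153 has bars in the 4 high-Cu libraries only, OYG_10000553_10004153 is highest in the low-Cu mantles M2-L and M1-L, and OYG_10012318_10004153 is highest in the high-Cu gills.

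Besides OYG_10000553_10004153, 3 genes were at least 2-fold lower in both high-Cu mantles. OYG_10025073_10024283, a member 4 gene and at 2658 bases the longest of the family, had 1.84 and 2.02 RPKM in M1-H and M2-H against 8.21 and 5.90 RPKM in M1-L and M2-L. It was also lower in the high-Cu gills, with 5.65 and 1.60 RPKM in G1-H and G2-H against 12.8 and 1.99 RPKM in G1-L and G2-L, and so was the only member lower in all 4 pairs, as 7.78% of all genes were. Its mantle log2 difference was -1.80 (SE 0.62, limma adjusted p = 0.378), and Fisher's exact test gave FDR 2.09e-05 in M1 and 0.00232 in M2. In gill the FDR was 0.00113 in G1 and 0.880 in G2, where 11 against 13 reads did not show a difference. OYG_10004960_10022541 had 10 and 7 reads in M1-H and M2-H against 25 and 14 in M1-L and M2-L, and OYG_10008352_10038581 had 8 and 7 reads in M1-H and M2-H against 16 and 14 in M1-L and M2-L. Fisher's exact FDR in M1 and M2 was 0.0433 and 0.268 for OYG_10004960_10022541, and 0.259 and 0.268 for OYG_10008352_10038581, so that no pair of either gene met the limit of 0.001.

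The genes at least 2-fold higher in both high-Cu mantles rested on few reads. OYG_10026451_10038581 had 7 and 3 reads in M1-H and M2-H against 0 and 0 in M1-L and M2-L, with Fisher's exact FDR of 0.0962 and 0.449. In gill it ran the other way, with 4 and 2 reads in G1-H and G2-H against 24 and 4 in G1-L and G2-L. OYG_10014807_10034271, a member 1 gene, had 1 and 4 reads in M1-H and M2-H against 0 and 1 in M1-L and M2-L, counts too low to show a difference (Fisher's exact FDR 1.0 and 0.605). Besides OYG_10021142_10004153, the gene at least 2-fold higher in both high-Cu gills was OYG_10005287_10024329, with 7 and 1 reads in G1-H and G2-H against 1 and 0 in G1-L and G2-L (Fisher's exact FDR 0.328 and 1.0).

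The most abundant gene, OYG_10010574_10025251, was higher in the high-Cu library of all 4 pairs, as 15.3% of all genes were. It had 63.7 and 73.4 RPKM in G1-H and G2-H against 55.0 and 35.5 RPKM in G1-L and G2-L, and 41.4 and 46.2 RPKM in M1-H and M2-H against 37.6 and 41.5 RPKM in M1-L and M2-L. Only the G2 pair differed beyond counting error (Fisher's exact FDR 2.76e-10), and the other pairs differed by 0.14 to 0.21 on the log2 scale.

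Of the other abundant genes, OYG_10017973_10026377 had 35.5 and 41.2 RPKM in G1-H and G2-H against 49.1 and 16.97 RPKM in G1-L and G2-L, so that its gill pairs ran in opposite directions. In mantle it had 18.6 and 26.7 RPKM in M1-H and M2-H against 38.5 and 47.5 RPKM in M1-L and M2-L, lower in both pairs (log2 difference -0.94, SE 0.45, limma adjusted p = 0.446). OYG_10018154_10015717 had 27.7 and 28.7 RPKM in M1-H and M2-H against 57.3 and 32.8 RPKM in M1-L and M2-L. M1-L stood above its other 7 libraries, and its gill values ran only from 21.7 to 31.4 RPKM. OYG_10016838_10025252, annotated as member 7, had 13.4 and 19.2 RPKM in G1-H and G2-H against 11.6 and 8.62 RPKM in G1-L and G2-L, and 6.18 to 11.3 RPKM in the mantles (gill log2 difference 0.67, SE 0.44, limma adjusted p = 0.972). The single gene annotated as member 8, OYG_10027391_10016359, had 2 to 12 reads in every library and its highest level, 7.11 RPKM, in M1-L.

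**Figure D5:**
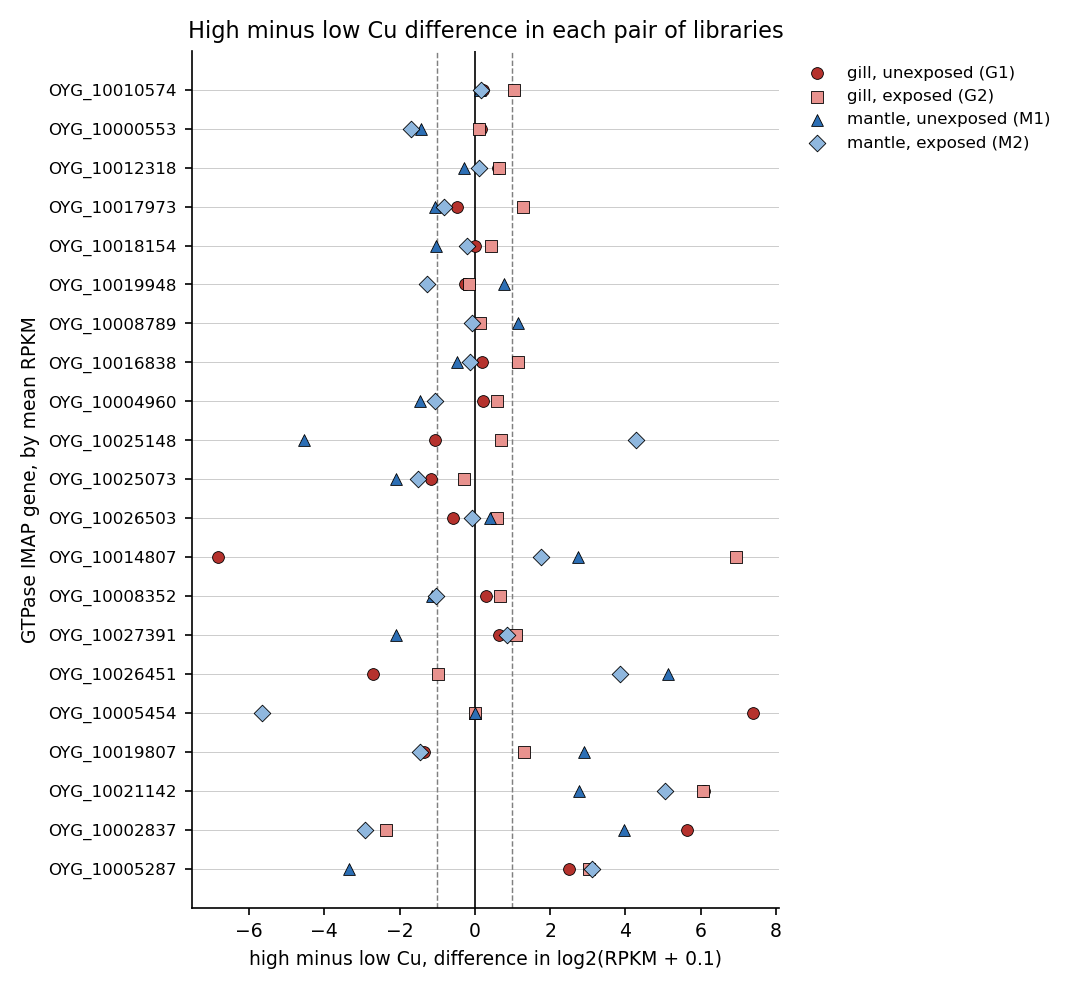
High minus low Cu difference in log2(RPKM + 0.1) of the 21 tested GTPase IMAP genes (rows, ordered by mean RPKM) in each of the 4 pairs of libraries. Dashed lines mark 2-fold. Of the 8 genes with a mean of at least 10 RPKM, OYG_10012318_10004153 is the only one with all 4 points inside these lines, and the points beyond 4 on the log2 scale lie in lower rows, where a library often holds 0 reads. The G1 and G2 symbols of OYG_10021142_10004153 overlap.

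Some family genes were read in 1 library of a Cu pair and had 0 reads in its partner. In 4 genes a library with 10 or more reads stood beside a partner with 0, a limit chosen after the values were seen, so that the count is a description. None of these 4 had more than 27 reads in any library. All cases lay in gill, with 4 genes in the G1 pair and 2 in the G2 pair. Besides OYG_10021142_10004153 these were OYG_10014807_10034271, OYG_10005454_10003069 and OYG_10002837_10003452, the last 2 named here because they met this limit. Genes with 10 or more reads in a library numbered 18 and 16 in the G1 and G2 pairs, but 12 in M1 and 12 in M2. Just under the limit, OYG_10005454_10003069 had 8 reads in M2-L against 0 in M2-H, and OYG_10026451_10038581 had 7 in M1-H against 0 in M1-L. The share of all genes at this limit is not given here, so nothing is read from the cases lying in gill.

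OYG_10014807_10034271 had 0 reads in G1-H against 18 in G1-L, and 25 reads in G2-H against 0 in G2-L. Its direction with Cu was thus opposite in the G1 and G2 gills. Set against 3 reads per library, the G1-H level was at least 6.82-fold lower (Fisher's exact FDR 3.86e-05), and the G2-H level at least 7.92-fold higher (FDR 1.03e-06). The exact 95% limits nearest to 0 were -2.32 and 2.58 on the log2 scale. OYG_10005454_10003069, a member 4 gene, was found in 2 libraries, with 27 reads in G1-H and 8 in M2-L and 0 in the other 6. OYG_10002837_10003452, also annotated as member 4, followed a crossed order of read counts in both tissues. It had 14 and 2 reads in G1-H and G2-H against 0 and 11 in G1-L and G2-L, and 4 and 1 reads in M1-H and M2-H against 0 and 9 in M1-L and M2-L. By sign alone, H was thus the higher in group 1 and L in group 2, in gill and in mantle. Fisher's exact FDR was 0.0032 in the G1 pair, 0.0487 in G2, 0.388 in M1 and 0.0329 in M2. The reads of the M1 pair did not show a difference, so the crossed order in mantle was not shown beyond counting error.

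Exposed oysters were compared with unexposed ones of the same Cu class. In gill, 0 of 21 family genes passed the adjusted threshold and 1 the unadjusted one (limma), where 0.0845% and 10.6% of all genes did. In mantle the counts were 0 and 2, where 0.00497% and 9.26% of all genes did. A limma voom fit also called 0 (0.231% of the tests over all genes), with 5 unadjusted calls in the 42 tests of gill and mantle, against 10.7% of these tests over all genes. Over both tissues, 0 family genes had exposed and unexposed libraries without overlap, against 1.65% of all genes higher and 3.62% lower. By the 2-fold rule 0 genes were higher and 3 lower in the exposed gills (3.94% and 4.61% of all genes), and 2 were higher and 0 lower in the exposed mantles (3.77% and 4.23%). The median log2 difference of the family was -0.26 in gill and -0.12 in mantle, against 0.01 and -0.15 for all genes.

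OYG_10025073_10024283 was the family gene with an unadjusted p under 0.05 for exposure in gill. It had 1.60 and 1.99 RPKM in G2-H and G2-L against 5.65 and 12.8 RPKM in G1-H and G1-L. Its log2 difference was -2.20 (SE 0.62, unadjusted p = 0.0116, limma adjusted p = 0.351), and Fisher's exact test gave FDR 0.000873 for H and 8.75e-12 for L. In mantle the exposed values of 2.02 and 5.90 RPKM in M2-H and M2-L lay close to 1.84 and 8.21 RPKM in M1-H and M1-L. The list of hemocyte and immune effector genes had lower sums in the exposed libraries of both tissues. They were 5372 and 1388 RPKM in G2-H and G2-L against 20343 and 17730 RPKM in G1-H and G1-L, and 14687 and 9648 RPKM in M2-H and M2-L against 40782 and 44185 RPKM in M1-H and M1-L. Most of each sum came from 2 extracellular superoxide dismutase genes. In G1-H and G2-H, OYG_10026148_10030582 had 11568 and 3227 RPKM, and OYG_10004092_10030581 had 4901 and 1052 RPKM. By the 2-fold rule 8 of the list's 21 tested genes were lower and 0 higher in the exposed gills, and 5 were lower and 1 higher in the exposed mantles. Of all genes, 4.61% were lower and 3.94% higher in the exposed gills, and 4.23% and 3.77% in the exposed mantles. None of the list's genes passed the adjusted limma threshold, and the part of these genes' cells in the GIMAP values was not tested.

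OYG_10026451_10038581 had 2 and 4 reads in G2-H and G2-L against 4 and 24 in G1-H and G1-L, and OYG_10005287_10024329 had 1 and 0 reads in G2-H and G2-L against 7 and 1 in G1-H and G1-L. In the exposed mantles OYG_10019807_10007593, a member 4 gene, had 6 and 16 reads in M2-H and M2-L against 2 and 0 in M1-H and M1-L (log2 difference 3.51, SE 1.34, limma adjusted p = 0.531). OYG_10000553_10004153 had 30.5 and 98.3 RPKM in M2-H and M2-L against 18.0 and 48.2 RPKM in M1-H and M1-L, a log2 difference of 0.89 (SE 0.28, unadjusted p = 0.0183, limma adjusted p = 0.509). In both Cu classes the exposed mantle was the higher, where the median over all genes was -0.26 for M2-L minus M1-L and 0.0 for M2-H minus M1-H, and in gill the exposed and unexposed values differed by -0.02 and 0.03 on the log2 scale. OYG_10019948_10035256, called higher in gill, had 18.6 and 20.6 RPKM in G2-H and G2-L against 32.7 and 38.8 RPKM in G1-H and G1-L, a log2 difference of -0.86 (limma adjusted p = 0.633).

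Gene lists of related function were set beside the family by their annotation. The lists were chosen with results of these data known. Of 15 tested interferon-inducible and dynamin-like GTPase genes, a class of larger immune GTPases, 1 was called higher in gill and 0 lower. Of 18 tested antiviral signalling genes, 0 were called lower in gill and 3 higher, among them an interferon regulatory factor 2 gene, OYG_10021171_10007268 (log2 difference 0.77, SE 0.19, limma adjusted p = 0.0286). Of 73 tested cell death genes, 9 were called higher in gill and 1 lower, and of 36 tested Rab GTPases, which direct vesicle traffic, 1 was called higher and 0 lower. Of all genes, 9.77% were called higher in gill and 5.92% lower. None of the genes of these 4 lists passed the adjusted threshold for Cu class or exposure in either tissue. For Cu class in mantle, 0 of 15, 1 of 18, 10 of 73 and 8 of 36 genes of these lists, in the order given, had an unadjusted p under 0.05 (limma), against 4 of 21 GIMAP genes and 12.2% of all genes. In gill 0, 1, 13 and 3 genes of the lists did, against 1 GIMAP gene and 4.64% of all genes. That GIMAP gene was OYG_10021142_10004153, which passed the filter through its high-Cu libraries alone and is also among the 4 in mantle, so nothing is read from the shares beside these GIMAP counts.

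The levels of the tested GIMAP genes varied more over the 8 libraries than those of all genes, by a median log2 range of 3.11 over 21 genes against 2.17 over 20123. Among genes with a mean of at least 10 RPKM the order was turned round, with 1.57 over 8 GIMAP genes against 1.71 over 10380 genes.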

How the data were processed

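Gill and mantle RNA of the 8 pools was sequenced and the authors deposited 1 table of RPKM values per gene and library, with Blast annotations; the submitters' processing notes name TopHat and Cufflinks without versions, and reads were mapped to the *C. gigas* genome. Columns were matched to samples by name. Reads were recovered from the deposited RPKM by the step that 1 read adds. Read counts lay within 0.002 of whole numbers, for 25181 of 25181 genes with reads (100%). Of the resulting lengths 99.8% were multiples of 3, and they are taken as coding lengths. For genes whose step was not found directly, only multiples of 3 were searched, so that this share is in part imposed. These reads served for read counts per gene, the listing of genes with 10 or more reads against 0, Fisher's exact tests (two-sided, Benjamini-Hochberg over genes with reads in the pair), exact Clopper-Pearson intervals at 95%, bounds against a floor of 3 reads per library, and a limma voom alternative. Intervals and floors cover counting error only.

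Values were analysed as log2(RPKM + 0.1) for genes with a mean of at least 1 RPKM. This understates the change of low genes where both libraries held reads. Where 1 library had 0 reads, the size depends on the value added and can be large. In OYG_10014807_10034271, 1 read in M1-H against 0 in M1-L gave a log2 difference of 2.73. Limma 3.58.1 (R 4.3.3, intensity trend, Benjamini-Hochberg over 20123 genes) fitted tissue + exposure + Cu class for gill minus mantle and for the Cu effect over both tissues, and oyster group within tissue as block plus a Cu effect in each tissue for the others, which left 4 and 2 residual degrees of freedom. The numbers 1 and 2 mark unexposed and exposed oysters. The pairing of H with L within a number follows the study's own comparisons, and the deviations of same-numbered libraries correlated at 0.19 in gill and 0.090 in mantle. With 1 library per condition, no spread between pools of 1 condition was measured. In the block fit, the limma p-values take as error the disagreement of the high minus low difference between groups 1 and 2. This error is pooled over gill and mantle, and limma moves it toward that of genes of like level. A gene thus has the same SE in both tissues, which is not the disagreement of that tissue's own pairs. In the additive fit, the error is every departure from the sum of the tissue, exposure and Cu effects. A true difference of the Cu effect between unexposed and exposed oysters thus counts as error. Fold calls needed 2-fold of 1 sign in every pair. Scripts were tested on simulated data (Python 3.11.15, pandas 2.3.3, numpy 2.4.6, scipy 1.17.1, matplotlib 3.10.9).

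The 17 genes named by rule were OYG_10021142_10004153 and OYG_10000553_10004153, the 8 most abundant, the up to 3 strongest in each direction by the fold rule in each of 5 comparisons, and those called by limma. Members and lists were chosen with earlier results of these data known. Genes named outside the rule are OYG_10005454_10003069, OYG_10002837_10003452, OYG_10008352_10038581 and OYG_10027391_10016359, chosen after their values were seen, and the members below the filter. Alternatives changed the pseudocount, filter, scaling, trend, block, fold threshold and libraries.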

Additional observations from a re-analysis of the deposited data

Results flagged for a closer look

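For 5 GTPase IMAP genes, both gill pairs differed between high and low Cu in one direction and both mantle pairs in the other, which 9.0% of all 20123 genes did. The difference of the Cu effects, gill minus mantle on the log2 scale, was tested in the limma fit, and each of the 5 had an adjusted p of 0.913. Higher in the high-Cu gills and lower in the high-Cu mantles were OYG_10000553_10004153, with a difference of 1.68 (SE 0.40), OYG_10016838_10025252 with 0.96 (SE 0.62), OYG_10004960_10022541 with 1.67 (SE 0.75) and OYG_10008352_10038581 with 1.57 (SE 0.93). OYG_10026451_10038581 ran the other way, with -6.34 (SE 1.61), a size that depends on the value added to RPKM because both low-Cu mantles had 0 reads. These orders go by sign alone, and several gill differences were small. OYG_10000553_10004153 differed by 0.15 and 0.11 on the log2 scale in G1 and G2 (Fisher's exact FDR 0.921 and 0.910). OYG_10004960_10022541 had 8 and 8 reads in G1-H and G2-H against 6 and 5 in G1-L and G2-L. For OYG_10008352_10038581 the FDR was 0.954 in G1 and 0.637 in G2. For exposed minus unexposed, 0 of 21 genes were opposite in the tissues, against 12.4% of all genes.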

How the results depend on the processing

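The counts of GTPase IMAP genes by the 2-fold rule depended on the settings. The shares of all genes under the other thresholds, pseudocount, filter and Fisher rule are not given here. Whether the losses below exceed those of all genes can therefore not be read from them. Gill minus mantle gave 4 genes, but 2 at a threshold of 4-fold and 2 with a Fisher FDR of at most 0.001 added. High minus low Cu in gill gave 2 genes, but 1 with a pseudocount of 1, 0 at a mean RPKM of at least 5, and 0 with the Fisher rule. In mantle it gave 7, but 3 with a pseudocount of 1, 3 at a mean RPKM of at least 5, 2 at 4-fold and 1 with the Fisher rule, which left OYG_10000553_10004153. Exposed minus unexposed gave 3 genes in gill, but 1 under each of these 4 settings, and 2 in mantle, but 0 under each of them. With 1 library left out a single pair decides, and the counts were 9 to 9 for Cu in gill, 13 to 15 for Cu in mantle, 7 to 9 for exposure in gill and 9 to 9 for exposure in mantle. Of all genes, 19.5% to 27.1%, 24.5% to 41.3%, 23.6% to 32.2% and 25.1% to 38.7% differed at least 2-fold in these pairs, in the same order. The Cu counts include OYG_10021142_10004153, which passed the filter through its high-Cu libraries alone, so nothing is read from the shares beside them. The limma calls for gill minus mantle numbered 4, but 2 at a mean RPKM of at least 5 and 2 to 4 with 1 library left out, with 2 without G1-L or without G2-H. They stayed 4 with no replicate block and with oyster groups as replicate block. For Cu and exposure, limma called 0 family genes under every alternative run, with 2 to 9 and 0 to 8 unadjusted calls, against 4.91% to 12.0% and 4.85% to 13.2% of the same tests over all genes, the replicate block included. Over all genes, tissue calls numbered 3158, but 1804 without G1-L and 1887 without G2-H, and exposure calls 18, but 93 with voom and 0 without the trend. OYG_10017973_10026377, at 0.11 on the log2 scale for gill minus mantle, turned to -0.10 with median centring and -0.088 with quantile normalization, and ran from -0.22 to 0.62 with 1 library left out. The fit of 1 effect over both tissues was added after the data were seen. The causes were not tested. Levels under 3 reads per library could not be compared.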
